A study of Mus musculus with 8 samples.

Results

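The RGS (regulator of G protein signalling) genes of chromosome 1 were followed in CD4+CD25+ T cells of pregnant mice with and without a working gene for the anti-inflammatory cytokine interleukin 10. The members were the rows of the deposited value table annotated with 1 gene symbol among Rgs1, Rgs2, Rgs4, Rgs5, Rgs8, Rgs13, Rgs16 and Rgs18, which made 8 of the 6986 genes tested. All 8 were found. Rgs5 alone had more than 1 probe set, and its brighter one was used.

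Para-aortic lymph nodes, to which the uterus drains, were taken at day 9.5 post coitus. CD4+CD25+ cells were isolated from them by flow cytometric sorting, and their RNA was hybridised to Affymetrix Mouse Gene 2.0 ST arrays. One group held 4 arrays of Il10+/+ mice, which were C57BL/6. The other held 4 arrays of Il10-/- mice, a mutant line backcrossed through the same colony, which drank oxytetracycline at 2 mg/ml against colitis. No antibiotic is stated for the Il10+/+ mice, so genotype and antibiotic cannot be told apart. Each array received pooled RNA of 2 to 4 mice, the age of the mice is not stated in the labels, and the pools were separate biological replicates per the series' design text. The question was how this T cell fraction differs without interleukin 10, in a study of regulatory T cell stability.

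RGS proteins end signals from G protein-coupled receptors. They bind the active alpha subunit of a G protein and speed up its hydrolysis of GTP, which returns the subunit to its resting state. All 8 members encode small RGS proteins that hold little more than the RGS domain. In lymphocytes, such proteins are known for limiting the response to chemokines and so for tuning migration and retention in lymph nodes. Rgs1, Rgs2 and Rgs16 are known from activated lymphocytes, Rgs13 from germinal centre B cells and mast cells, Rgs18 from platelets and their precursors, Rgs5 from pericytes, and Rgs4 and Rgs8 mainly from neurons.

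Upstream sequence is shown for 3 members. Rgs16 and Rgs13 had the differences of greatest size between the groups, and Rgs2 stands beside them as a bright member whose means lay close together. Sequences are from RefSeq on build GRCm38.p6, where 6 of the 8 members matched by symbol (Rgs1 and Rgs18 did not). Each run is the 250 bases before the annotated start, 5′ to 3′ on the gene's strand. Capitals mark matches, on either strand, to CCAAT (the CCAAT box), TGACG (the core of the cAMP response element), GGAAA (the core bound by NFAT) and TATAAA (the TATA box). No marked matches overlap each other in these 3 runs.
Rgs16, chr1:153740103-153740352, plus strand: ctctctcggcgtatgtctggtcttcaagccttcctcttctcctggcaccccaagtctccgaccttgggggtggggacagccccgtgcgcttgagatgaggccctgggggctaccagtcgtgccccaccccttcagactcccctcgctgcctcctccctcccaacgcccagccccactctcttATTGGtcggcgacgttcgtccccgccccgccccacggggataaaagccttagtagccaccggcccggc
Rgs2, chr1:144004150-144004399, minus strand: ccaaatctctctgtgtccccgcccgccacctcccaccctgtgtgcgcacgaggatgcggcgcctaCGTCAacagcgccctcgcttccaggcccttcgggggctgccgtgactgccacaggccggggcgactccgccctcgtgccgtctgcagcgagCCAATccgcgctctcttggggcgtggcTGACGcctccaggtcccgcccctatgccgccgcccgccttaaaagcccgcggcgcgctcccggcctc
Rgs13, chr1:144177373-144177622, minus strand: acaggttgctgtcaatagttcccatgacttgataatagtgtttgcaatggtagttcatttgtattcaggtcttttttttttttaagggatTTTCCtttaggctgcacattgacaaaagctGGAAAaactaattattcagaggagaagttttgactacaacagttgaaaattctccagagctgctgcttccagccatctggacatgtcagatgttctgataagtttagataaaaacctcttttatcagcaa

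The Rgs2 run held 30 CpG dinucleotides and was 72.4% G or C. The Rgs16 run held 17 and was 66.4% G or C. The Rgs13 run held 0 CpG dinucleotides and was 36% G or C, against medians of 6 and 52.4% over the 32851 promoters of the table. Rgs2 had 2 matches to TGACG and 1 to CCAAT, Rgs16 had 1 to CCAAT, and Rgs13 had 2 to GGAAA. Of all promoters of that length, 17.8% held TGACG, 33.8% CCAAT, 55.6% GGAAA and 12.4% TATAAA. None of these 3 runs held TATAAA. These are matches of letters and not measured binding.

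The arrays were alike in overall level, and the labelled cell type could be checked only in part. Array medians over all tested genes ranged from 6.97 to 7.12 on the log2 scale. Il10-/- replicate 2 and Il10+/+ replicate 4, 1 array of each group, stood apart, with interquartile ranges of 2.15 and 2.17 against 2.32 to 2.58 in the others. Their scores on the first principal component were 16.56 and 17.81. Il10+/+ replicate 2 lay at the other end of that component (-13.28) and had the widest interquartile range (2.58). The remaining arrays scored from -5.58 to -2.72. Of 13 regulatory T cell markers 5 were measured, among them Ctla4, an inhibitory receptor, at a mean log2 value of 11.27, and Ikzf2, the transcription factor Helios, at 11.44. The rest were Ikzf4 at 9.16, Socs2 at 8.27 and Il10. Foxp3, Il2ra and Cd4 were not analysed here. Il10, the targeted gene, read 9.35, 8.65, 9.42 and 9.25 in the Il10-/- arrays and 8.27, 8.51, 8.14 and 7.50 in the Il10+/+ arrays. It was thus brighter in all 4 arrays labelled Il10-/-, by 1.06 (SE 0.22), and did not pass (limma, adjusted p = 0.405). The sources used here do not say which part of the gene is disrupted, so this probe set checks no label, and every direction below rests on the labels.

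Of the 8 members, 3 gave a bright signal and 5 a dim one in both groups. Rgs1 had a mean log2 value of 10.34 over the 8 arrays, Rgs2 of 9.81 and Rgs16 of 9.30. These levels stood at the 94.0th, 90.0th and 85.3rd percentile of all tested genes. Rgs8 had a mean of 6.75, Rgs5 of 5.99, Rgs13 of 5.63, Rgs4 of 5.60 and Rgs18 of 5.38. As a reference for dim signal, 230 olfactory receptor genes had a median of 5.00 and a 95th percentile of 7.07, so all 5 dim members lay below that percentile. Brightness also depends on the probes of each gene, so this order is not one of transcript abundance. No detection call was used, and expression of the dim members is not shown. Rgs13, Rgs4 and Rgs18 lay closer together than the spread of Rgs13 over arrays (SD 0.78), and their order has no weight.

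**Figure D1:**
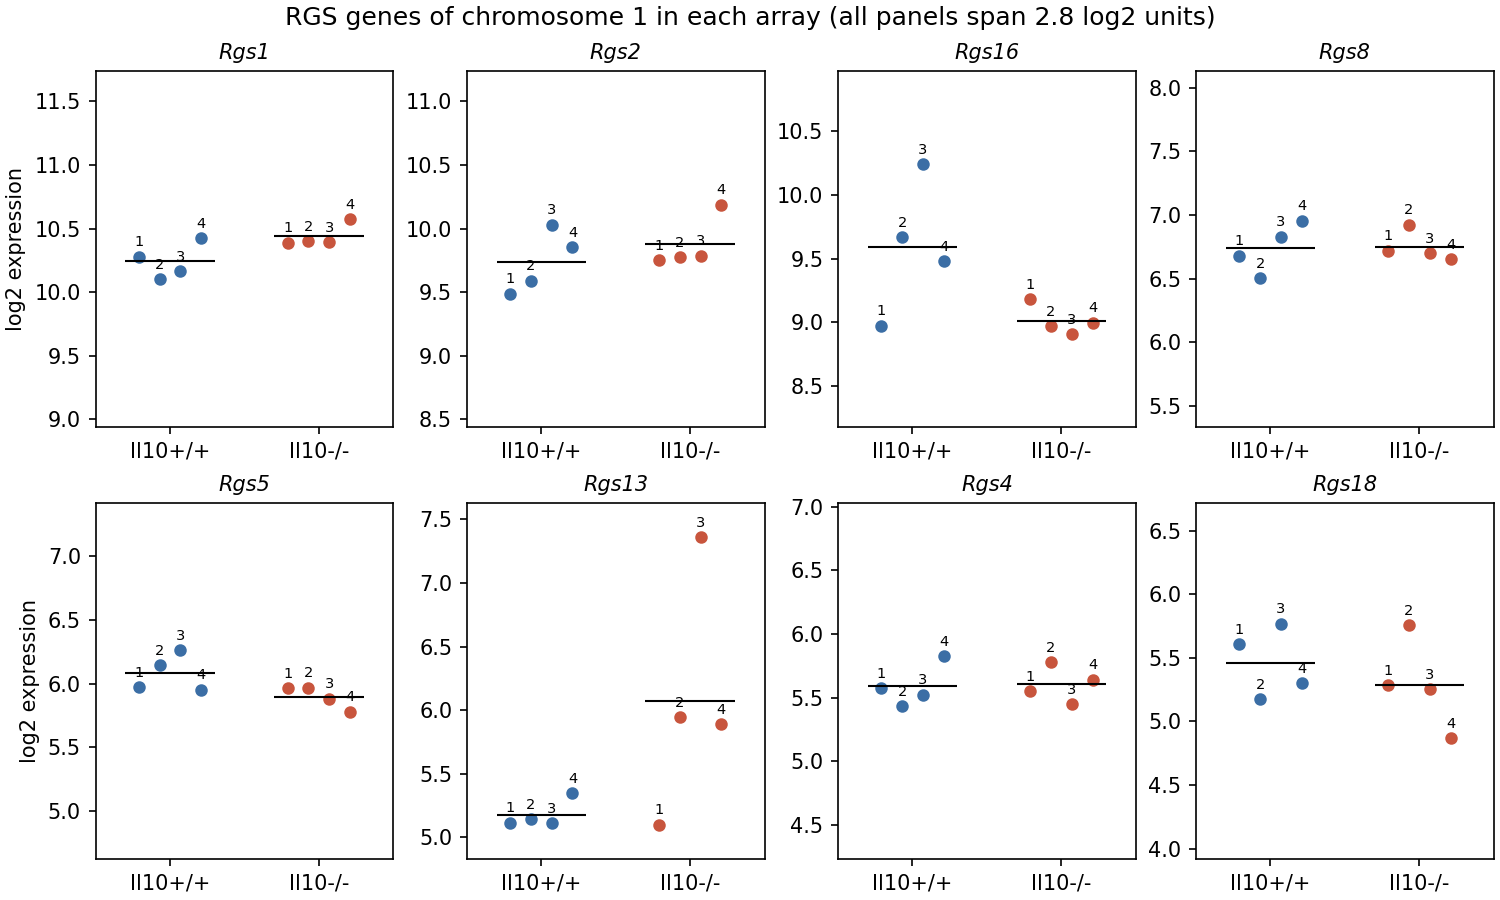
Log2 expression of each member in every array; points are arrays with their replicate number, the horizontal line is the group mean, and all panels span the same number of log2 units. Rgs16 is spread out among the Il10+/+ arrays (8.97 to 10.24), and Rgs13 among the Il10-/- arrays (5.10 to 7.36).

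No member passed the test between the groups. By limma with Benjamini-Hochberg adjustment over all tested genes, 0 of 8 members reached an adjusted p under 0.05, where 0.0286% of all genes did. At an unadjusted p under 0.05 limma counted 2 members, Rgs13 and Rgs16, against 4.78% of all genes. Rgs13 was the 1 member higher in Il10-/- (background 3.19%) and Rgs16 the 1 member lower (background 1.59%). In 0 of 8 members did the groups lie apart without overlap, against 2.92% of all genes (1.83% higher and 1.09% lower in Il10-/-). A difference of at least 0.58 in size was found for 1 member, Rgs13, against 1.07% of all genes, with Rgs16 just under that size at -0.578. The median difference of the members, Il10-/- minus Il10+/+, was 0.01 on the log2 scale, against 0.00 over all tested genes, with 5 members above 0 and 3 below. In these bulk pools, fewer cells of a type and less RNA per cell cannot be told apart.

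Rgs16, which acts on Gi and Gq alpha subunits and is induced when T cells are activated, had the lower mean in Il10-/-. It read 8.97, 9.67, 10.24 and 9.48 in Il10+/+ replicates 1 to 4, and 9.18, 8.97, 8.90 and 8.996 in Il10-/- replicates 1 to 4. The Il10-/- arrays lay close together, and 3 of the 4 Il10+/+ arrays lay above all of them. Il10+/+ replicate 1 lay within their range, so the groups overlapped. The Il10-/- mean was 9.01 ± 0.12 (SD, n = 4) and the Il10+/+ mean 9.59 ± 0.52 (SD, n = 4). They differed by -0.58 on the log2 scale (SE 0.22, 95% confidence interval -1.06 to -0.10), or 1.49-fold more in Il10+/+. It did not pass (limma, unadjusted p = 0.0230, adjusted p = 0.873; exact two-sided permutation p = 0.0857). Without Il10+/+ replicate 3 the difference was -0.36, and without Il10+/+ replicate 1 it was -0.78.

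The early genes of T cell activation, which answer antigen receptor signals within a short time, gave values in the same direction as Rgs16. Of 16 measured genes of 36 in the list, 0 passed in either direction. Negative differences were found in 15 of the 16, with a median of -0.17, where 49.2% of all genes had a negative difference. Tnfaip3, an inhibitor of NF-kappaB, differed by -0.32, Zfp36l1, an RNA-binding protein that promotes mRNA decay, by -0.42, and Nfkbia, which holds NF-kappaB in the cytoplasm, by -0.15. Much of this rested on Il10-/- replicate 2. Its mean over the 16 genes was 8.61, while the other Il10-/- arrays had 9.17 to 9.26 and the Il10+/+ arrays 8.99 to 9.39. Without that array, 10 of 16 differences were negative and the median was -0.06. Without both arrays that stood apart, 13 of 16 were negative and the median was -0.08. The Rgs16 value of Il10-/- replicate 2 (8.97) lay between those of the other Il10-/- arrays, and the Il10-/- range of Rgs16 was only 0.28. Il10+/+ replicate 3 had the highest value of both Rgs16 (10.24) and the early gene mean (9.39). Il10+/+ replicate 1, with the next highest early gene mean (9.31), had the lowest Rgs16 value of its group (8.97). Il10+/+ replicate 4 had the lowest early gene mean of that group (8.99) and an Rgs16 value of 9.48. The part of the early genes in the Rgs16 values was not tested.

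Rgs13, a small RGS protein of germinal centre B cells and mast cells, had the higher mean in Il10-/-. It read 5.10, 5.94, 7.36 and 5.89 in Il10-/- replicates 1 to 4, and 5.12, 5.14, 5.11 and 5.35 in Il10+/+ replicates 1 to 4. Il10-/- replicate 3 was far above the rest, replicates 2 and 4 lay above all Il10+/+ arrays, and replicate 1 lay below all of them. The Il10-/- mean was 6.07 ± 0.94 (SD, n = 4) and the Il10+/+ mean 5.18 ± 0.11 (SD, n = 4). They differed by 0.89 on the log2 scale (SE 0.36, 95% confidence interval 0.09 to 1.70). No fold is given, since the Il10+/+ values lay close to the median of the olfactory receptor genes (5.00). It did not pass (limma, unadjusted p = 0.0329, adjusted p = 0.952; exact two-sided permutation p = 0.143). Without Il10-/- replicate 3 the difference was 0.46. In 7 of the 8 arrays the signal was no higher than 5.94, below the 95th percentile of the olfactory receptor genes (7.07). Il10-/- replicate 3 lay above that percentile but below the highest mean of an olfactory receptor gene (8.35).

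Markers of the cells in which Rgs13 is known were set beside it. Of 15 B cell markers 6 were measured, and 0 passed the threshold. All 6 differences were positive (median 0.14), but without Il10-/- replicate 2 only 3 of 6 were (median 0.07). Their mean level ran from 6.93 to 7.31 in Il10-/- and from 6.81 to 7.00 in Il10+/+. It was highest in Il10-/- replicate 2 (7.31), while Il10-/- replicate 3, the array with the highest Rgs13, had 6.98. Among the Il10-/- arrays, replicate 3 was the highest for 1 of the 6 markers, Cd79b, a chain of the B cell receptor complex (9.07). It was the lowest for 3 of them, the B cell transcription factor Ebf1 (6.25), the complement receptor Cr2 (5.82) and Vpreb3 (6.38). Over all 8 arrays, Ebf1, Cr2, Vpreb3 and Fcrla had means of 6.31 to 6.45, below the olfactory receptor genes' 95th percentile (7.07). Cd79b (8.58) and Blk (7.90) had means above it. Of 8 germinal centre B cell markers 3 were measured, with a mean level of 7.30 in Il10-/- replicate 3, the lowest of the Il10-/- arrays, whose highest was 7.74. Mybl1 (mean 6.30) and Nuggc (6.63) also lay below that percentile of the olfactory receptor genes, and Elk3 (9.67) above it. Signal this dim limits what these markers can show. Bcl6 and S1pr2 were not analysed here. Of 8 mast cell markers 3 were measured, all with a negative difference. Their median of -0.55 was -0.18 without Il10+/+ replicate 1 and -0.25 without Il10-/- replicate 4. The mast cell mean was 7.19, 8.49, 8.43 and 7.12 in Il10-/- replicates 1 to 4. In Il10+/+ it ran from 7.62 to 9.16, the highest being that of replicate 1. Of the Il10-/- arrays, replicate 3 was the highest for the mast cell markers Fcer1a (7.08) and Cma1 (8.94), and replicate 2 for Mcpt4 (9.70). The part of B cells or mast cells in the Rgs13 values was not tested.

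**Figure D2:**
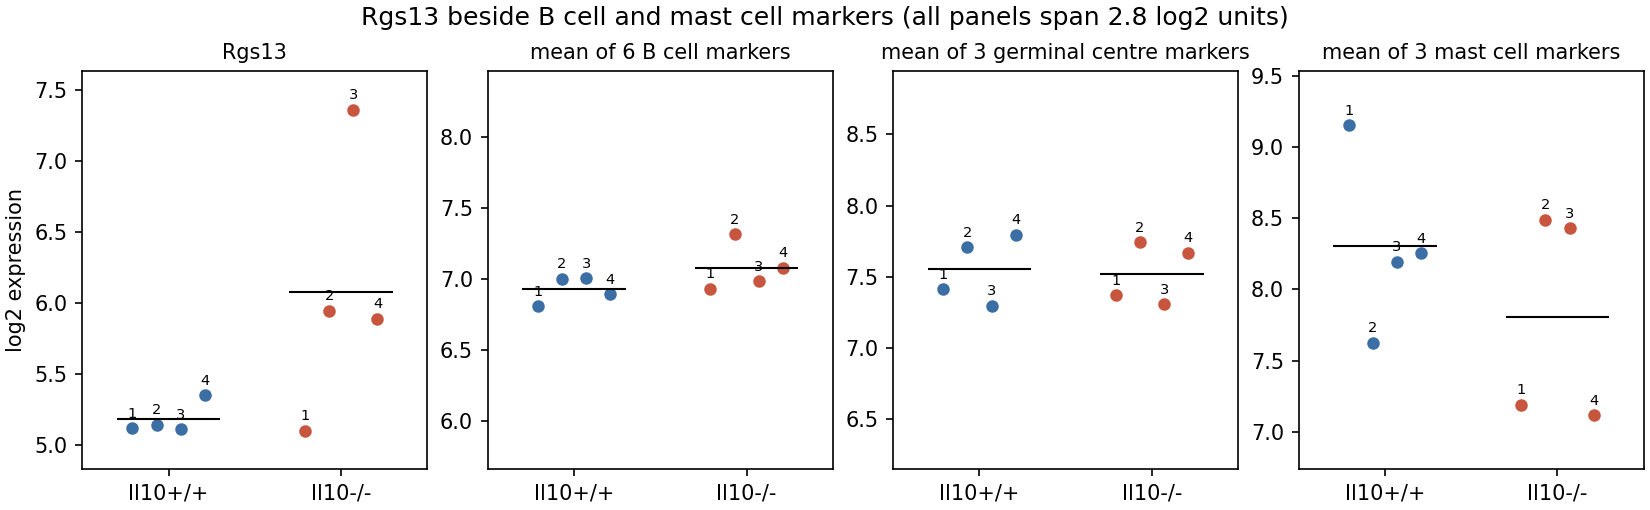
Log2 expression of Rgs13, and the mean log2 expression of 6 B cell, 3 germinal centre B cell and 3 mast cell markers, in every array; points are arrays with their replicate number, lines are group means, and all panels span the same number of log2 units. Il10-/- replicate 3 is the highest array for Rgs13 (7.36). Its B cell mean is 6.98, against 7.31 in Il10-/- replicate 2, and its germinal centre mean (7.30) is the lowest of the Il10-/- arrays. Its mast cell mean (8.43) is near the highest of the Il10-/- arrays (8.49 in replicate 2). The highest mast cell mean of all arrays is that of Il10+/+ replicate 1 (9.16), where Rgs13 reads 5.12. The lowest is that of Il10-/- replicate 4 (7.12), where Rgs13 reads 5.89. Ebf1, Cr2, Vpreb3, Fcrla, Mybl1 and Nuggc have means below the 95th percentile of the olfactory receptor genes (7.07).

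Rgs1 and Rgs2, the brightest members, had slightly higher means in Il10-/-, and neither passed the test. Rgs1, which limits the chemokine response of lymphocytes, read 10.39, 10.40, 10.39 and 10.57 in Il10-/- replicates 1 to 4, and 10.28, 10.10, 10.16 and 10.43 in Il10+/+ replicates 1 to 4. The lowest Il10-/- array lay above 3 of the 4 Il10+/+ arrays, and only Il10+/+ replicate 4 reached into the Il10-/- range. The difference was 0.20 (SE 0.11, 95% confidence interval -0.04 to 0.43; limma, adjusted p = 0.999; exact permutation p = 0.114). Rgs2, which acts mainly on Gq, read 9.75, 9.78, 9.79 and 10.19 in Il10-/- and 9.49, 9.59, 10.03 and 9.85 in Il10+/+, for replicates 1 to 4 of each. The groups overlapped widely. The difference was 0.14 (SE 0.15, 95% confidence interval -0.19 to 0.46; limma, adjusted p = 0.999; exact permutation p = 0.429). Il10-/- replicate 4 was the highest of the 8 arrays for both genes. Without it, the Rgs1 difference was 0.15 and the Rgs2 difference 0.03.

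None of the remaining dim members passed the test. Rgs5 read from 5.78 to 5.97 in Il10-/- and from 5.95 to 6.26 in Il10+/+, a difference of -0.18 (95% confidence interval -0.42 to 0.05; limma, adjusted p = 0.999; exact permutation p = 0.114). Its dimmer probe set, at 4.31 to 4.71 over all arrays, gave a difference of -0.15. Rgs18 read from 4.87 to 5.76 in Il10-/- and from 5.18 to 5.77 in Il10+/+, a difference of -0.17 (95% confidence interval -0.59 to 0.25; exact permutation p = 0.514). Without Il10-/- replicate 4 it was -0.03. Itga2b, the 1 measured gene of 9 platelet and megakaryocyte markers, differed by 0.05. Rgs4 read from 5.45 to 5.78 in Il10-/- and from 5.43 to 5.83 in Il10+/+, a difference of 0.02 (95% confidence interval -0.24 to 0.28; exact permutation p = 0.914), with a negative sign under quantile normalization or median centring. Rgs8 read from 6.65 to 6.92 in Il10-/- and from 6.50 to 6.96 in Il10+/+, a difference of 0.01 (95% confidence interval -0.26 to 0.27; exact permutation p = 0.943), likewise negative under both of those scalings. Of 14 markers of pericytes, smooth muscle and stroma, 5 were measured, with mean levels of 5.88 to 6.07 in Il10-/- and 5.90 to 6.16 in Il10+/+.

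**Figure D3:**
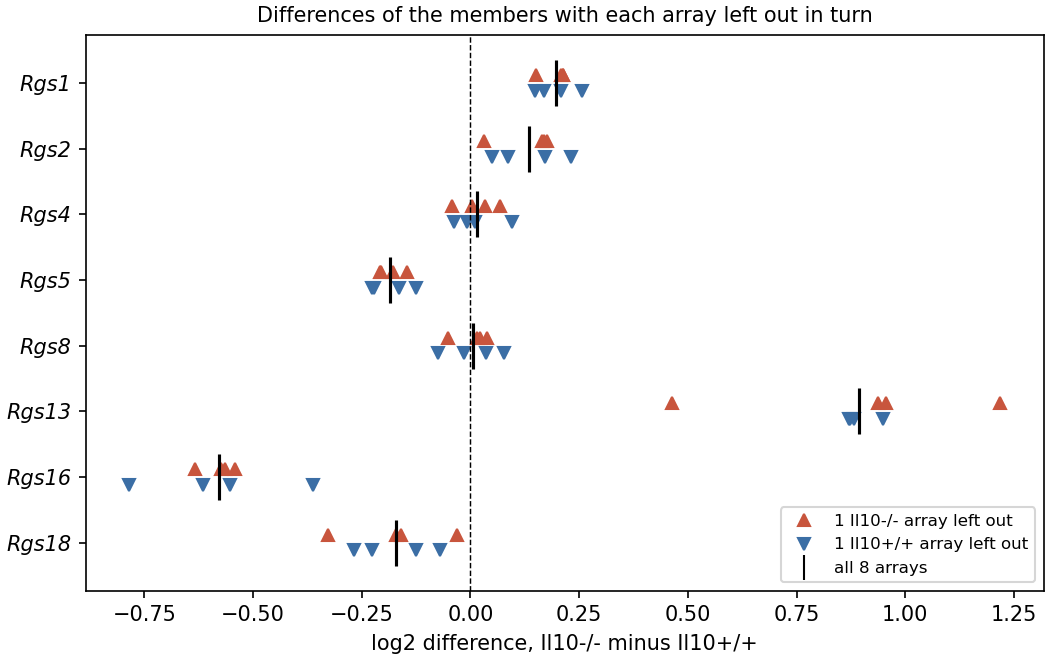
Log2 difference (Il10-/- minus Il10+/+) of each member with all 8 arrays (black line) and with 1 array left out (triangles up for an Il10-/- array, down for an Il10+/+ array). Rgs13 ranges from 0.46 to 1.22 and Rgs16 from -0.78 to -0.36, and Rgs4 and Rgs8 lie on both sides of 0.

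The members differed in how much they varied between arrays. The SD of Rgs13 over the 8 arrays was at the 99.5th percentile of all tested genes, that of Rgs16 at the 97.1st and that of Rgs18 at the 87.0th. Rgs2 was at the 67.9th percentile, and Rgs1, the brightest, at the 32.3rd. The spread of Rgs16 lay in the Il10+/+ arrays, with a range of 1.27 there and 0.28 in Il10-/-. The spread of Rgs13 lay in the Il10-/- arrays, with a range of 2.26 there and 0.24 in Il10+/+.

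The members did not vary as 1 block. Over the 8 arrays, Pearson's r between members ran from -0.90 to 0.88 over 28 pairs. The values are a description of arrays that share their normalization. The lowest r was that of Rgs1 with Rgs5, and the highest that of Rgs5 with Rgs16. With the group means taken out, these were -0.83 and 0.78. Rgs4 with Rgs8 had an r of 0.79, and both had their highest value in Il10+/+ replicate 4 and their next highest in Il10-/- replicate 2, the arrays that stood apart. Rgs1 and Rgs2 had an r of 0.495.

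The genes whose pattern over the 8 arrays was most like that of each bright member were listed by Pearson's r, as a description. For Rgs16 these were Limk2, a kinase of the actin regulator cofilin, at r = 0.979, the olfactory receptor gene Olfr1373 at 0.967 and Anapc11, a subunit of the anaphase-promoting complex, at 0.967. For Rgs1 they were Pnp2, a purine nucleoside phosphorylase, at 0.952, the ribosomal protein gene Rps23 at 0.947 and the globin gene Hbq1a at 0.932. For Rgs2 they were the ion channel gene Trpv1 at 0.953, the vomeronasal receptor gene Vmn2r85 at 0.949 and the olfactory receptor gene Olfr30 at 0.943. Mean log2 values of 3.02 for Vmn2r85 and 4.44 for Olfr30 lay below the median of the olfactory receptor genes. Each gene was picked from all tested genes for its r over only 8 arrays, so values this high carry no weight of their own.

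Among tested genes in the order of the RefSeq annotation of GRCm38.p6, Rgs2, Rgs13, Rgs1, Rgs21 and Rgs18 follow each other, then come Rgs8 and Rgs16 with 1 gene between them, and then Rgs5 and Rgs4. Between Il10 and Rgs2 lay 122 tested genes. Rgs13 (0.89) lay between Rgs2 (0.14) and Rgs1 (0.20), and Rgs21, a gene of the same subfamily, differed by 0.03. Rgs16 (-0.58) lay next to the RGS-like gene Rgsl1 (0.08) on one side and near Rgs8 (0.01) on the other. The differences of neighbours were not tested against each other.

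RGS and related genes outside the 8 members gave no called difference. Of 20 such genes 12 were measured and 0 passed, with 4 positive and 8 negative differences and a median of -0.03. Axin2, a scaffold of the Wnt pathway that carries an RGS domain, differed by -0.37 (95% confidence interval -0.77 to 0.04). It was -0.19 without Il10+/+ replicate 4 and -0.50 without Il10+/+ replicate 1. Rgs7bp, which anchors RGS proteins at the membrane, differed by -0.12, and Rgs9, known for ending the light response of photoreceptors, by -0.09. Rgs14, which also binds inactive Gi subunits, had a bright signal (mean 8.38) and differed by -0.03.

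**Figure D4:**
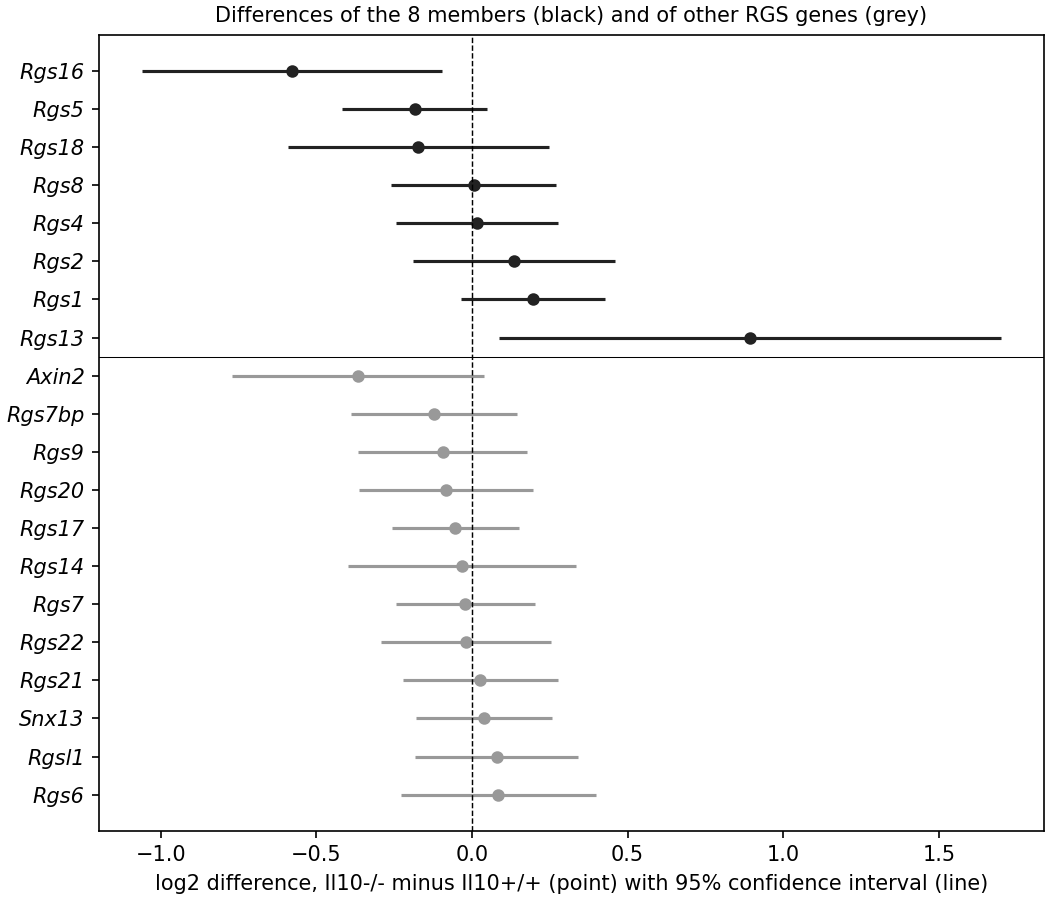
Log2 difference (Il10-/- minus Il10+/+, point) with its 95% confidence interval (line), not adjusted for the number of genes, for the 8 members in black and 12 other RGS and related genes in grey. The intervals of Rgs13 (0.09 to 1.70) and Rgs16 (-1.06 to -0.10) leave out 0, and all others cover it.

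The genes on which RGS proteins act, and the receptors upstream of them, were likewise without a called difference. Of 32 G protein subunits 9 were measured, with 0 past the threshold, 6 positive and 3 negative differences and a median of 0.07. Gna15, a Gq-type alpha subunit of blood cells, differed by 0.19, Gng2, a gamma subunit, by 0.16 and Gna13, another alpha subunit, by -0.13. With 1 array left out, Gna15 ran from 0.05 to 0.28, Gng2 from 0.09 to 0.23 and Gna13 from -0.20 to -0.04. Of 51 chemoattractant and lipid receptors 17 were measured, with 0 past the threshold, 7 positive and 10 negative differences and a median of -0.04.

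Among these receptors, Gpr18 read 10.49, 10.56, 10.53 and 10.75 in Il10-/- replicates 1 to 4, and 10.23, 10.47, 10.45 and 9.96 in Il10+/+. The Il10-/- arrays lay above all Il10+/+ arrays, with a difference of 0.30 (limma, unadjusted p = 0.0411, adjusted p = 0.999). The nearest arrays of the groups read 10.49 and 10.47, and without Il10+/+ replicate 4 the difference was 0.20. Gpr18 was the 1 receptor of 17 without overlap, where 2.92% of all genes had none (1.83% higher in Il10-/-). Cysltr2, a receptor for cysteinyl leukotrienes, differed by 0.51 (unadjusted p = 0.0266, adjusted p = 0.884), with 1 Il10+/+ array at 9.36 among the Il10-/- values of 9.11 to 9.43. Gpr132, a receptor for oxidised lipids and lactate, differed by -0.33. Of 6 measured chemokine receptors, 4 had a negative difference, namely Ccr7 (-0.49), Cxcr4 (-0.34), Cxcr2 (-0.19) and Cxcr1 (-0.11). The other 2, Ackr3 (0.11) and Ccr10 (0.07), had a positive one. Without Il10-/- replicate 2, Ccr7 differed by -0.33 and Cxcr4 by -0.13. Of 37 effectors and kinases 14 were measured, with 0 past the threshold, 8 positive and 6 negative differences and a median of 0.01. Prkar2b, a regulatory subunit of protein kinase A, differed by 0.37, Adcy4, an adenylyl cyclase, by -0.14 and Rac2, a GTPase of migrating blood cells, by -0.18.

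**Figure D5:**
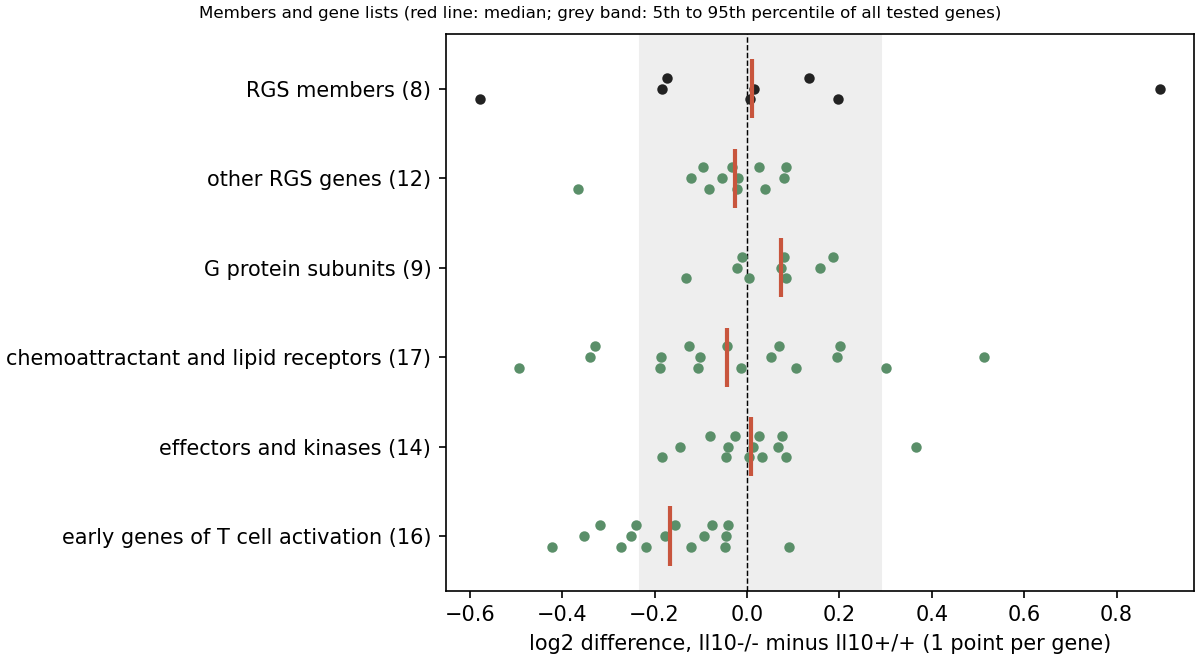
Log2 difference (Il10-/- minus Il10+/+) of each member and of each measured gene in 5 lists, 1 point per gene, with the median as a red line and the 5th to 95th percentile of all tested genes (-0.23 to 0.29) as a grey band. Rgs13 (0.89) and Rgs16 (-0.58) lie outside the band, the other 6 members lie inside it, and the early genes of T cell activation have a median of -0.17.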

How the data were processed

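The authors deposited log2 expression values. Per the series' design text, Partek software applied RMA background correction, adjusted for GC content and averaged the probes of each probe set. Affymetrix Expression Console is also named, per the submitters' processing notes. No version or genome build is stated there. RNA was amplified before labelling, which can alter the levels of scarce transcripts.

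Of 16378 probe sets in the value table, the platform annotation named 1 gene for 7358, several for 456 and none for 8564. Of the first, 7310 matched RefSeq (GRCm38.p6) by Entrez identifier and took its symbol. The brightest probe set of each gene was kept, which left 6986 genes without a filter. Chromosomes 1 and 10 to 15 held 99.6% of the placed genes, so lists were measured in part.

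Groups were compared with limma 3.58.1 (lmFit, eBayes) in R 4.3.3, all genes in 1 fit, at a Benjamini-Hochberg adjusted p of 0.05, two-sided, and by an exact permutation test over the 70 assignments of arrays, whose smallest p is 0.0286. The fit was tested on simulated data. The number of arrays limits the precision. Named were all members, Il10, up to 3 genes of smallest p per list and the 3 genes most like each member brighter than the median gene. The other genes, Rgs14, Rgs21, Rgsl1 and the chemokine receptors among them, the markers and the olfactory reference were chosen after values were seen. Members and lists were chosen with earlier results of these data known.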

Additional observations from a re-analysis of the deposited data

Results flagged for a closer look

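In groups of 4 arrays, a value was singled out when its gap to the nearest other array was a larger share of the group's range than Dixon's 95% critical value allows. About 1 in 20 groups is singled out by chance, and 9 of 66 groups were here, 3 of them among the 16 groups of the members.

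Among the members, Il10-/- replicate 4 stood out for Rgs1 (10.57) and Rgs2 (10.19), and Il10+/+ replicate 4 for Rgs13 (5.35, against 5.11 to 5.14 in the other Il10+/+ arrays). Il10-/- replicate 3, the highest array for Rgs13, did not meet this limit.

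Among the other named genes, Il10+/+ replicate 4 stood out for Rgs9 (8.29) and Gna13 (9.71), Il10+/+ replicate 3 for Prkar2b (6.24), Il10-/- replicate 2 for Zfp36l1 (9.68), and Il10-/- replicate 4 for Vmn2r85 (3.36) and Olfr30 (4.56). Vmn2r85 and Olfr30 were picked for their likeness to Rgs2, which is highest in the same array.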

How the results depend on the processing

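With every alternative, 0 members passed the adjusted threshold, and Rgs1, Rgs2, Rgs5, Rgs13, Rgs16 and Rgs18 kept their direction wherever a value could be had. Rgs13 ran from 0.46 to 1.22 and Rgs16 from -0.78 to -0.36. The filter on dim genes left out the 5 dim members. Over all genes, 2 passed, and 3 with the trend and robust options of eBayes. The count was 1 with median centring, with array weights, with the replicate block, and without the 2 arrays that stood apart. It was 1 to 4 with each replicate left out (4 without Il10-/- replicate 3). Near 0, Rgs4 was -0.024 with quantile normalization and -0.0062 with median centring, and Rgs8 was -0.020 and -0.016, and -0.033 with array weights. With each replicate left out, Rgs4 ran from -0.043 to 0.095, Rgs8 from -0.074 to 0.077, Rac2 from -0.29 to 0.0017, Rgs9 from -0.14 to 0.023, Ccr10 from -0.073 to 0.19, and the medians of G protein subunits from -0.019 to 0.079, of receptors from -0.087 to 0.031 and of effectors from -0.014 to 0.035 (-0.013 with median centring). Of the 24 other named genes, 18 moved by over 1.5 times with some array left out. Olfr30 was -0.0077 with quantile normalization, and Rgs9 was 0.020 without the 2 arrays. The cause of these changes was not tested. The alternatives for gene lists, markers and chemokine receptors and the dimmer Rgs5 probe set were chosen after seeing the data. The labels state no shared day or litter for arrays of the same number. Same-numbered arrays correlated, in their deviations from group means across genes, at 0.05, -0.32, 0.03 and -0.19 for numbers 1 to 4. Il10-/- replicate 2 and Il10+/+ replicate 4, the arrays that stood apart, correlated at 0.46. Such values cannot show whether same-numbered arrays were handled together. With the replicate block, Rgs13 had an unadjusted p of 0.0225 and Rgs16 one of 0.0326, and neither passed (limma, adjusted p = 0.9995 for both). Signal near that of the olfactory receptor genes limits what the 5 dim members can show.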
